A study of Mus musculus with 20 samples.

Results

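This comparison asks how tissue beside colorectal tumors differs between ApcMin mice with and without Erbb2 in the intestinal epithelium. Its members are the 10 libraries labelled adjacent normal, out of 20 in the series: 5 from Erbb2-deficient mice and 5 from controls, chosen by their labels and by no measured value. The other 10 libraries are tumors of the same genotypes. All animals were C57BL/6J mice aged 100 days, heterozygous for ApcMin, an Apc allele that predisposes to intestinal tumors, and homozygous for a floxed Erbb2 allele (Erbb2tm1Mll). Erbb2-deficient mice also carried Tg(Vil1-cre), a cre recombinase driven by the Villin promoter. That promoter is active in intestinal epithelial cells, so other cells of the tissue keep Erbb2. Controls were littermates without cre (labelled WT for Erbb2 although they carry the same floxed alleles), so the genotypes also differ by the cre transgene itself. The replicates are labelled biological replicates, but whether equal numbers mark the same mouse or litter is not stated, and p-values measure the spread between libraries.

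ERBB2 belongs, with EGFR, ERBB3 and ERBB4, to a family of receptor tyrosine kinases at the cell surface. It binds no ligand of its own and signals in heterodimers, above all with ERBB3 and EGFR, that are activated by EGF-type ligands or neuregulins. Its main outputs are the RAS-MAPK and PI3K-AKT pathways, which in the gut take part in crypt proliferation and epithelial repair.

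Few reads fell on the gene rows. Reads assigned to genes made up 2.51% to 3.45% of the reads in an adjacent library, or 1121240 to 1944309 gene counts, while reads on no counted feature made up 78.6% to 84.1%. Most rows appear to hold reads from the strand opposite to the gene they are named for: ND6 is the one mitochondrial protein gene encoded on its strand, and its row took 3.93% to 12.01% of gene counts, against the 12 other mitochondrial protein rows with 0.180% to 0.426%. A symbol therefore names a row of the table here, and its partner (a gene whose annotated exons lie opposite the row's exons) or neighbour (a gene on the opposite strand within 1000 bases, without such an overlap) is given beside it where a result turns on it. Partners come from GENCODE M21, an annotation of GRCm38, which is another build than the mm39 of the counts. It was used for names and relations only, so no coordinate is given. In such rows, which of both genes a read came from is unknown. Levels are normalized CPM, the usual depth-scaled counts, over the tested rows after scaling of the libraries by edgeR's TMM factors, as mean ± SD over the 5 libraries of a genotype, Erbb2-deficient first. Log2 fold changes are Erbb2-deficient minus control, ± the standard error.

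The largest axis of variation among the 10 adjacent libraries followed the share of reads on no counted feature. The first principal component of log2 CPM held 34.7% of the variance and correlated with that share at Pearson r = 0.958 (n = 10, permutation p = 1.1e-04) and Spearman rho = 0.915 (permutation p = 5.5e-04). Over the 2 components tested, the Benjamini-Hochberg adjusted values were 2.2e-04 and 0.0011. Without the 2 libraries farthest from the median share, Erbb2-deficient 1 and 4, r was 0.923. This axis did not separate the genotypes: the share was 81.2% ± 2.35 in Erbb2-deficient and 81.03% ± 1.65 in control libraries (SD, n = 5 each; exact permutation p = 0.944 over 252 splits, two-sided, adjusted 0.944 over 3 library measures). The ND6 share was likewise close, at 7.37% ± 2.94 in Erbb2-deficient and 7.18% ± 2.93 in control libraries (exact permutation p = 0.905, adjusted 0.944).

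The second component held 15.04% of the variance and did not follow that share (r = -0.09, permutation p = 0.810, rho = -0.03, permutation p = 0.947, n = 10). Erbb2-deficient libraries scored 1.88 to 21.8 on it and controls -38.7 to 5.19, so the groups overlapped through control 5, and control 3 stood apart at the low end. The number of rows with at least 1 count was 16352 to 17755 in Erbb2-deficient libraries and 15115 to 16343 in controls, with no overlap, beside total gene counts of 1259429 to 1944309 and 1121240 to 1367967. The Tsix row, which lies opposite Xist (the RNA that coats the inactive X chromosome), had counts of 0, 0, 1, 2 and 1487 in the Erbb2-deficient libraries and 99, 1363, 2038, 1 and 0 in controls. The highest Tsix levels were thus in Erbb2-deficient 5 (951 CPM) and in controls 2 and 3 (1060 and 1510 CPM). Control 1, at 89.4 CPM, lay between these and the remaining libraries. Reads in this row may come from Xist and so mark female animals. The sex of the animals and its balance between the genotypes were not tested, so sex was not separated from genotype. With the Tsix level as a covariate edgeR called 0 rows and 293 had an unadjusted p under 0.05.

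**Figure D1:**
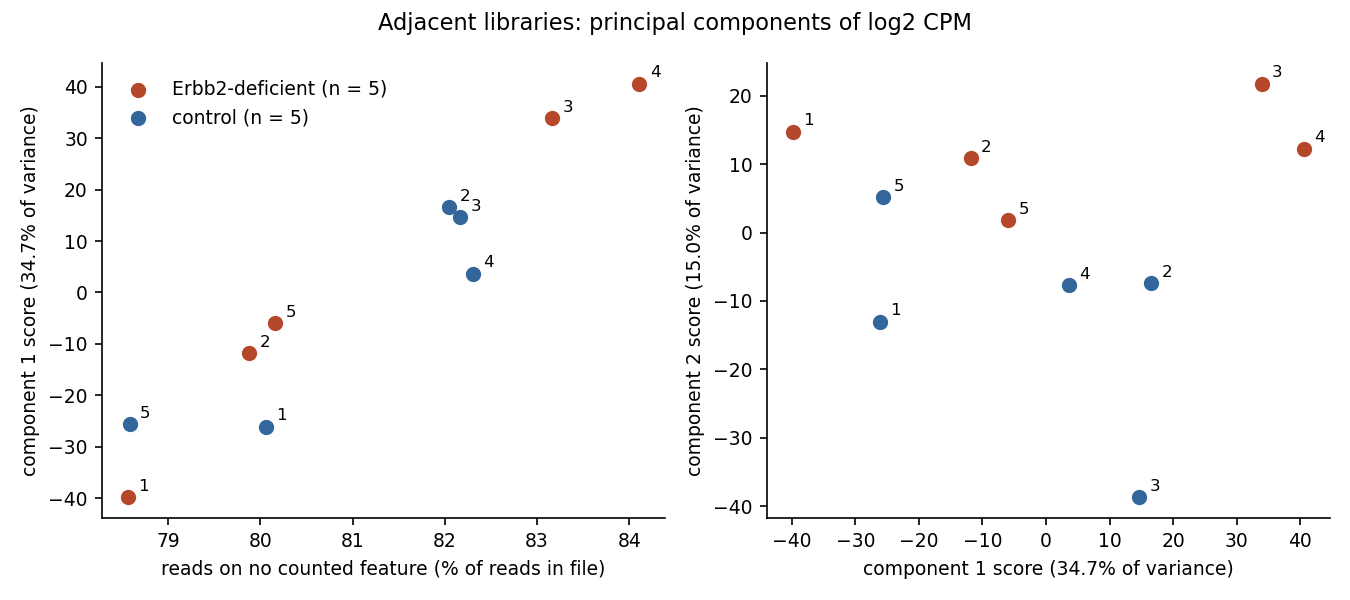
Left, first component score against the share of reads on no counted feature (% of reads in the file) for the 10 adjacent libraries; right, first against second component score. Points are libraries, numbered by replicate and coloured by genotype (5 each); the genotypes intermingle on the first component, and control 3 lies lowest on the second, at -38.7.

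No row passed the threshold in the comparison of the 5 Erbb2-deficient with the 5 control adjacent libraries. Of 5887 rows tested with edgeR's quasi-likelihood test, 0 (0%) had a Benjamini-Hochberg adjusted p under 0.05 and the smallest adjusted p was 0.149, for Prr33. At an unadjusted p under 0.05 there were 428 rows (7.27%), of which 243 had a higher mean in Erbb2-deficient tissue (4.13%) and 185 a lower one (3.14%). The 5 values of one genotype lay wholly above the 5 of the other in 89 rows (1.51%), 48 toward Erbb2-deficient tissue (0.815%) and 41 toward controls (0.696%). DESeq2, which gave an adjusted p for 3240 rows, called 36 of them (1.11%), 31 lower (0.957%) and 5 higher (0.154%). Adding the share of reads on no counted feature to the edgeR fit gave 5 calls (0.0849%), all lower: Prr33, Gm30368, Pcsk7, Gpr17 and A330033J07Rik.

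Rows with and without an exon opposite had different medians. Rows with no annotated gene opposite had a median log2 fold change of 0.15 over 1151 rows, with 117 at an unadjusted p under 0.05 higher and 24 lower. Rows with an exon opposite had a median of -0.03 over 2772 rows, with 64 higher and 98 lower. The median over all tested rows was 0.02, and 52.7% of them lay above 0. The share of gene counts on rows without an exon opposite, those with a neighbour included, was 15.5% ± 1.15 in Erbb2-deficient and 14.6% ± 1.03 in control libraries (SD, n = 5 each; exact permutation p = 0.270, adjusted 0.810). Scaled apart from the others, rows without an exon opposite had a median of -0.00 and rows with one a median of 0.01. Such scaling itself brings the middle of each class near 0, so these medians cannot show whether the classes differ.

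The Erbb2 locus showed no difference beyond the spread between libraries. The Erbb2 row had 22, 12, 22, 12 and 5 counts in Erbb2-deficient libraries and 11, 9, 4, 3 and 12 in controls, so the ranges overlapped and the numerically higher values were in the Erbb2-deficient group. Its normalized level was 10.2 ± 5.04 against 6.66 ± 3.86 CPM, a log2 fold change of 0.62 ± 0.48 with an adjusted p of 0.811. Mien1, a small gene beside Erbb2 in the amplicon of ERBB2-positive cancers, overlaps Erbb2 on the opposite strand by 9 exonic bases in GENCODE M21 and lies opposite Gm12352 as well. Its row was at 183, 139, 419.8, 269.8 and 66.8 CPM in the Erbb2-deficient libraries and 358, 345, 116, 241 and 349 CPM in the controls. The groups overlapped, with a log2 fold change of -0.39 ± 0.43 and an adjusted p of 0.883. With so few bases opposite and so few counts on the Erbb2 row itself, the recombination of the floxed allele could not be checked from these rows.

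Of 19 listed ERBB receptors, ligands and inhibitors, 6 passed the filter on low counts, 5 lay above 0 and none passed the threshold. Their median log2 fold change was 0.21 (0.041 without Erbb2-deficient 5), and 52.7% of all tested rows lay above 0. Among receptors, Egfr was the only other one tested, at 16.7 ± 6.01 against 15.8 ± 6.49 CPM and 0.09 ± 0.36. Erbb3, the main partner of ERBB2, was not tested, with 3 to 26 counts in Erbb2-deficient and 2 to 6 in control libraries, and Erbb4 had no count in any adjacent library. Nrg4, a neuregulin that binds ERBB4 and whose row lies opposite exons of Fbxo22 and Gm15625, was at 225, 224, 228, 177 and 224 CPM in the Erbb2-deficient libraries and 172, 174, 187, 212 and 191 CPM in the controls. Its groups overlapped through Erbb2-deficient 4 (0.20 ± 0.17, adjusted p = 0.822). Lrig1, an inhibitor that marks slowly cycling crypt cells, lies opposite Slc25a26 and differed by 0.21 ± 0.26. Grb7, an adaptor of ERBB2 encoded next to it, differed by 0.25 ± 0.48. The EGFR ligands (Areg, Btc, Egf, Epgn, Ereg, Hbegf, Tgfa) and the neuregulins Nrg1, Nrg2 and Nrg3 stayed under the filter, with 16 counts at most in a library.

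Rows named for outputs of the receptor lay on both sides of 0. Among 18 MAPK output genes 4 were tested, 1 above 0 and 3 below, with a median of -0.32. The 3 below 0 have an exon opposite, so which gene their reads came from is unknown. Etv4, the 1 above 0, has none. The median is therefore a value of rows and not a measure of receptor output. Etv4, an ETS transcription factor induced by ERK, was at 9.13, 36.05, 8.43, 19.6 and 19.1 CPM in the Erbb2-deficient libraries and 6.70, 8.03, 7.998, 7.31 and 5.95 CPM in the controls. No value overlapped, with a log2 fold change of 1.33 ± 0.41 and an adjusted p of 0.447, and the 3 high Erbb2-deficient libraries were 2, 4 and 5. Fosl1, which encodes the AP-1 protein FRA1, differed by -0.59 ± 0.26 (unadjusted p = 0.0376), while Ccdc85b opposite it differed by 1.64 ± 0.57. Ccnd1, the cyclin D1 gene, differed by -0.06 ± 0.20, and LTO1 opposite it by -0.60 (SE 0.17, unadjusted p = 0.00397), with no overlap between the groups. Phlda1, opposite Gm28592, differed by -0.59 ± 0.38. Of 20 PI3K and AKT pathway genes 4 were tested, none with an unadjusted p under 0.05, among them Tsc2, opposite Pkd1, at -0.24 ± 0.30, Akt1 at -0.01 ± 0.28 and Pik3r2, opposite 6330537M06Rik, at 0.34 ± 0.42.

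Of the 12 rows of smallest p that were lower in Erbb2-deficient tissue, Prr33, Pcsk7, Tmem252 and Smtn lie beside, opposite or in a muscle gene, a grouping made after they were seen. The share of all tested rows that lie so was not counted, so the grouping only describes these rows. Prr33, with Lsp1 and Tnnt3 (a troponin T of striated muscle) as neighbours, was at 170.1, 191, 174, 168 and 152 CPM in the Erbb2-deficient libraries and 597, 373, 315, 332 and 399 CPM in the controls. Every Erbb2-deficient library was under every control, and the Erbb2-deficient values were the tighter group. The means were 171 ± 13.8 against 403 ± 113 CPM, a log2 fold change of -1.24 ± 0.20, and the adjusted p was 0.149 in edgeR, 0.0242 with the no-feature share in the fit, 1.9e-06 in DESeq2 and 0.470 with the Tsix level in the fit.

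The row of Pcsk7, a proprotein convertase, lies opposite exons of Tagln and Rnf214 and was at 18978, 19450.1, 32157, 27343 and 20805 CPM in the Erbb2-deficient libraries and 59935, 54061, 34768, 46016 and 38369 CPM in the controls. Tagln encodes transgelin, an abundant actin-binding protein of smooth muscle. In GENCODE M21 the row's exons overlap those of Rnf214 by 415 bases and those of Tagln by 108. The groups did not overlap: the means were 23746 ± 5778 against 46630 ± 10507 CPM, a log2 fold change of -0.97 ± 0.20 with an adjusted p of 0.355 (0.0305 with the no-feature share, 0.00347 in DESeq2). The row named Tagln itself differed by -0.04 ± 0.18 and that of Rnf214 by -0.31 ± 0.17.

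Gpr17, opposite Lims2 (an adaptor of integrin adhesions), was at 89.6, 84.1, 130.2, 119 and 78.9 CPM in the Erbb2-deficient libraries and 214, 207, 289, 162 and 173 CPM in the controls. No value overlapped, and the log2 fold change was -1.06 ± 0.23 (adjusted p = 0.355, 0.0305 with the no-feature share). Tmem252 has Pgm5, a protein of muscle cell junctions, as its neighbour and was at 844, 826, 1093, 1046 and 796 CPM in the Erbb2-deficient libraries and 2046, 1847, 1104, 1761 and 1266 CPM in the controls. Erbb2-deficient 3, at 1093, came within a few units of control 3, at 1104, but the groups did not overlap (-0.80 ± 0.19, adjusted p = 0.413). The row of Pgm5 itself differed by -0.17 ± 0.42. A930016O22Rik, opposite the muscle creatine kinase gene Ckm, is a predicted-gene symbol outside the naming rule and was picked after its values were seen. Its level was 128 ± 41.8 against 334 ± 118 CPM, with no overlap and a log2 fold change of -1.39 ± 0.28.

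Smtn is a smooth muscle gene itself, encoding smoothelin, and its row lies opposite Gm11946 and Gm11947. The row was at 479.6, 411, 460.3, 417 and 353 CPM in the Erbb2-deficient libraries and 759.7, 723, 1357, 380.4 and 986 CPM in the controls. Control 4 lay within the Erbb2-deficient range and control 3 was by far the highest, so the groups overlapped (-0.99 ± 0.27, adjusted p = 0.418). Of 24 smooth muscle genes 18 were tested, 4 above 0 and 14 below, and none passed the threshold. In the lower direction 3 had an unadjusted p under 0.05 (Smtn, Lmod1 and Myl9), beside 3.14% of all tested rows. The median was -0.27 (-0.47 without control 4) against 0.02 over all rows, of which 52.7% lay above 0. Lmod1, a leiomodin that nucleates actin filaments, was at 8.36 ± 5.14 against 15.7 ± 3.18 CPM (-0.93 ± 0.40), and Myl9, a regulatory myosin light chain, at 41.2 ± 10.5 against 66.1 ± 29.6 CPM (-0.68 ± 0.31). Acta2, smooth muscle actin, was at 25.95 ± 10.1 against 39.1 ± 16.9 CPM and -0.59 ± 0.35. All 6 tested rows that lie opposite smooth muscle genes were below 0, with a median of -0.44 (-0.22 without control 3). Among all rows with an exon opposite 46.2% lay above 0, with a median of -0.03. The summed level of the 6 rows was 19201 to 33035 CPM in Erbb2-deficient and 35929 to 60400 in control libraries, most of it from Pcsk7.

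The labels call the tissue epithelium, and muscle rows were present in all 10 libraries. The summed level of the 18 smooth muscle rows was 1259 to 1651 CPM in Erbb2-deficient libraries and 1218 to 2730 in controls, so the ranges overlapped, and no listed smooth muscle gene was at 0 in every library. Of 18 pan-epithelial genes 14 were tested and none was at 0. In bulk tissue, fewer cells of a type and less RNA per cell cannot be told apart. With the mean log2 level of the smooth muscle rows as a covariate no row passed the threshold, 125 rows were lower at an unadjusted p under 0.05 against 185 without it, and 333 were higher against 243.

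Of the other lower rows, Ung had no gene opposite and Gtpbp3 a neighbour, and the rest lay opposite exons. Hoxb3os, opposite exons of Hoxb2 and Hoxb3, was at 24.6, 32.8, 33.7, 31.3 and 37.5 CPM in the Erbb2-deficient libraries and 85.2, 52.2, 80.7, 57.7 and 49.3 CPM in the controls. Its groups did not overlap (-1.02 ± 0.25, adjusted p = 0.413, 0.0106 in DESeq2). The row of Hoxb3, a homeobox gene of anterior-posterior patterning, differed by -1.18 ± 0.37 and that of Hoxb2 by -1.03 ± 0.56, with both highest in control 3, at 262 and 56.0 CPM. Without control 3 they were -0.76 and -0.16. Over 11 tested Hox genes of 29 the median was -0.24, with 5 above 0, and it was 0.06 without control 3. Hoxb13, which marks the most posterior gut, was at 19.7 to 29.1 CPM in Erbb2-deficient libraries and at 0.727 to 23.9 in controls (0.85 ± 0.49), lowest again in control 3.

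Ung, the uracil-DNA glycosylase of base excision repair, with no gene opposite, was at 10.3, 7.21, 6.13, 5.09 and 8.27 CPM in the Erbb2-deficient libraries and 19.1, 18.5, 14.5, 17.1 and 14.5 CPM in the controls. The groups did not overlap, with a log2 fold change of -1.15 ± 0.28 and an adjusted p of 0.413. Gtpbp3, a modifier of mitochondrial tRNAs whose neighbour Plvap encodes an endothelial diaphragm protein, was at 19.6 ± 6.20 against 46.5 ± 16.4 CPM with no overlap (-1.23 ± 0.31). The row of Plvap itself differed by -0.05 ± 0.34. Epb41, a membrane skeleton protein opposite Gm10300 and Gm13063, was at 91.9 ± 24.8 against 203 ± 79.8 CPM and overlapped through Erbb2-deficient 1 and control 2 (-1.14 ± 0.29).

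Lrrc61, opposite the chemerin gene Rarres2, was at 823, 399.7, 427, 497 and 373 CPM in the Erbb2-deficient libraries and 1266, 827, 646, 984 and 1103 CPM in the controls. Erbb2-deficient 1 stood apart from its group and gave the overlap (-0.94 ± 0.24, adjusted p = 0.413). The Rarres2 row differed by -0.00 ± 0.23. Lrrc47, opposite Smim1, was at 38.7 ± 13.8 against 84.8 ± 27.8 CPM with no overlap (-1.13 ± 0.31), and Chn1os3, opposite Chn1 (a RAC GTPase-activating protein), at 31.8 ± 6.62 against 61.6 ± 16.6 CPM with no overlap (-0.95 ± 0.26). Gm30368 (-1.13 ± 0.23) and A330033J07Rik (opposite Id4, an inhibitor of helix-loop-helix factors, -0.88 ± 0.20) were picked after their values were seen, as calls of the fit with the no-feature share.

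**Figure D2:**
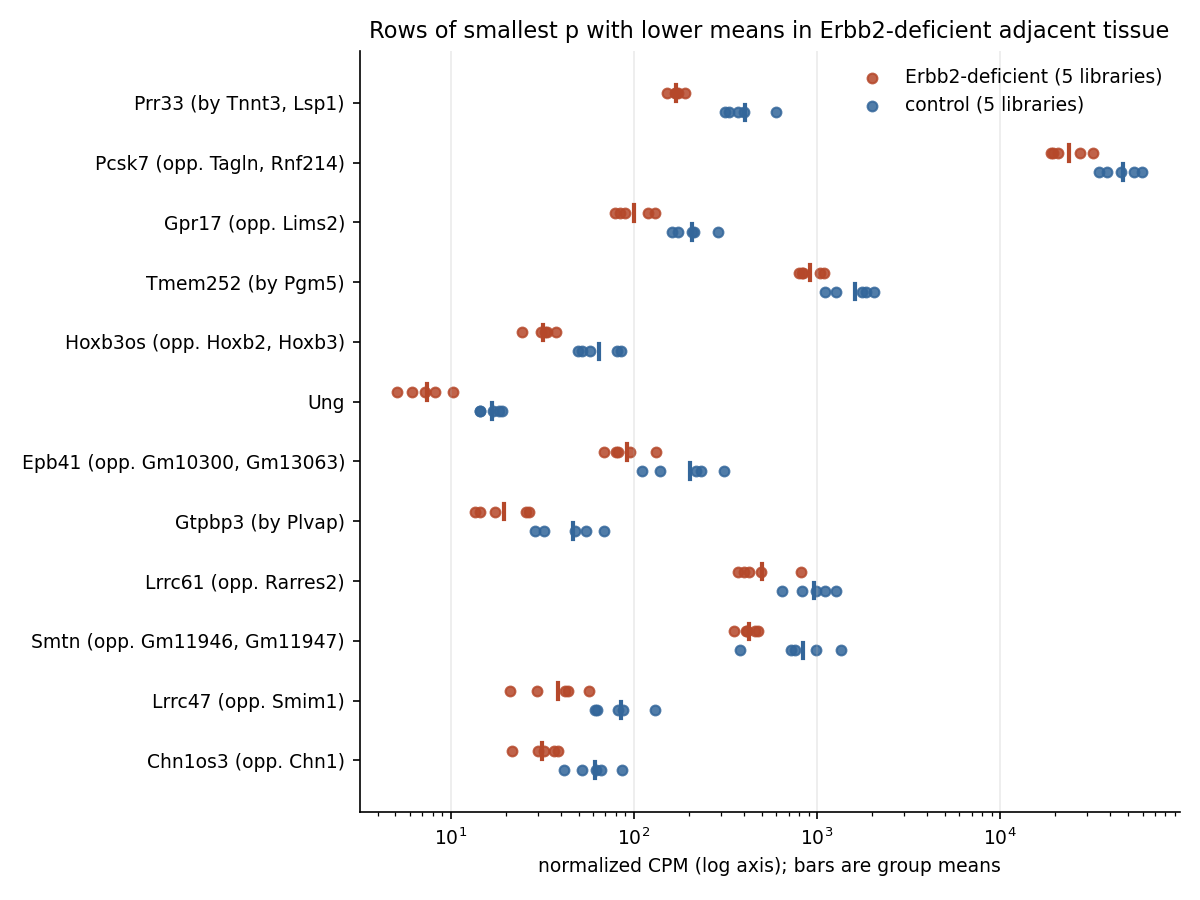
Normalized CPM (log axis) of the 12 rows of smallest p that were lower in Erbb2-deficient adjacent tissue, with partners (opp.) or neighbours (by) in brackets. Points are libraries (5 per genotype) and bars group means; Prr33 and Pcsk7 show no overlap, whereas Epb41, Lrrc61 and Smtn do overlap.

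The 11 rows named for a higher mean in Erbb2-deficient tissue mostly had no exon opposite. Ahnak, a giant scaffold protein of the cell cortex, was at 43.96, 32.8, 61.3, 29.1 and 16.5 CPM in the Erbb2-deficient libraries and 6.70, 8.84, 11.6, 7.31 and 17.01 CPM in the controls. Erbb2-deficient 5 lay just under control 5, so the groups overlapped, with a log2 fold change of 1.82 ± 0.38 and an adjusted p of 0.355.

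Rows of B and plasma cell genes lay mostly below 0: of 19 listed, 6 were tested, 1 was above 0, and the median was -0.24. Of all tested rows 52.7% lay above 0. The summed level of the B and plasma cell rows was 339.6 to 488.1 CPM in Erbb2-deficient and 315 to 697 in control libraries. Fcrla and Mzb1 were at 0 in every adjacent library. Cxcr5, the chemokine receptor that guides B cells into follicles, whose row lies opposite Bcl9l, was at 28.8 ± 7.81 against 46.2 ± 11.7 CPM with no overlap (-0.68 ± 0.28). Ms4a1, which encodes CD20, was at 13.1 ± 5.48 against 8.81 ± 5.11 CPM, and Igha, the IgA heavy chain, at 67.1 ± 38.8 against 103 ± 77.5 CPM, both with overlap.

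Muc3, a membrane mucin of the absorptive brush border, was at 152, 160.2, 270.4, 199.98 and 96.7 CPM in the Erbb2-deficient libraries and 99.5, 98.8, 55.3, 71.5 and 87.6 CPM in the controls. The Erbb2-deficient group was higher but its lowest library, number 5, lay under 2 controls (1.09 ± 0.28, adjusted p = 0.413, 0.0442 in DESeq2). Oit1, a secreted protein of the gut epithelium, was at 96.5, 90.5, 64.3, 61.1 and 75.7 CPM in the Erbb2-deficient libraries and 51.7, 44.99, 33.4, 19.5 and 38.3 CPM in the controls. Its groups were apart (1.05 ± 0.28, adjusted p = 0.413, 0.0361 in DESeq2). B3galt5, a galactosyltransferase of mucin-type glycans, was at 14.7 ± 3.90 against 5.53 ± 1.32 CPM with no overlap (1.40 ± 0.32), and St3gal3, a sialyltransferase, at 36.01 ± 14.4 against 11.7 ± 6.84 CPM with overlap (1.60 ± 0.42).

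Kdm4a, a histone H3 demethylase, was at 71.9, 67.3, 38.3, 71.99 and 21.6 CPM in the Erbb2-deficient libraries and 6.70, 16.1, 23.3, 6.50 and 25.5 CPM in the controls. Its groups overlapped through Erbb2-deficient 5 (1.78 ± 0.44, 0.0236 adjusted in DESeq2). Scd2, a stearoyl-CoA desaturase, was at 17.8 ± 11.95 against 5.48 ± 1.96 CPM with no overlap, and Erbb2-deficient 3 was highest (1.66 ± 0.44). Hip1r, an adaptor of clathrin and actin whose row lies opposite Vps37b, was at 14.2 ± 2.24 against 6.11 ± 1.96 CPM (1.21 ± 0.31), Clec2h, a lectin-like membrane protein, at 11.98 ± 1.62 against 5.16 ± 1.94 CPM (1.21 ± 0.31), and Clmn at 15.4 ± 6.71 against 5.74 ± 1.32 CPM (1.39 ± 0.36). None of these last 3 overlapped between the groups, and all had adjusted p-values of 0.413.

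**Figure D3:**
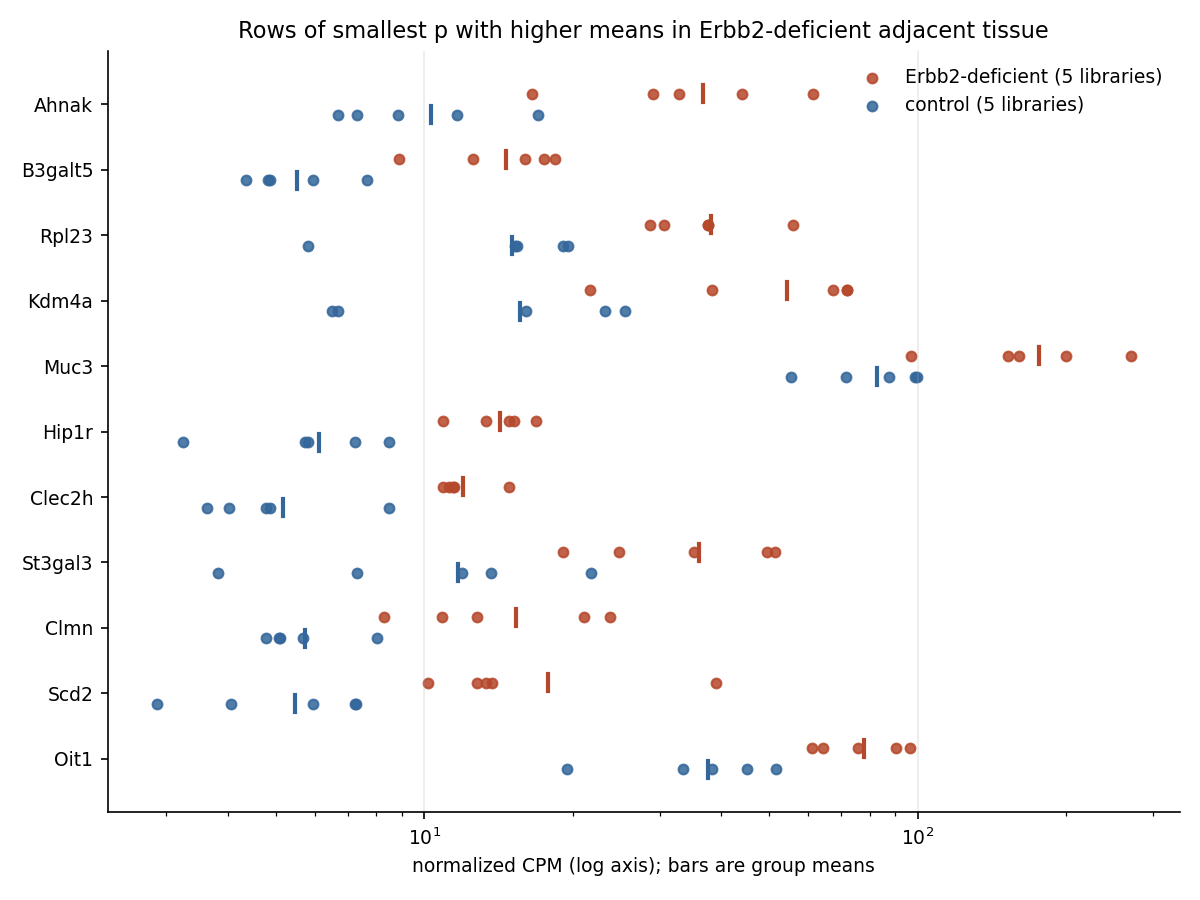
Normalized CPM (log axis) of the 11 rows named for a higher mean in Erbb2-deficient adjacent tissue. Points are libraries (5 per genotype) and bars group means; most rows lie under 100 CPM, and B3galt5, Rpl23 and Oit1 show no overlap.

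Rows of intestinal epithelial genes had medians above that of all rows, without any member past the threshold. Most of them had no exon opposite, a class that includes rows with a neighbour, here and in the lists below. Among all rows with no gene opposite 63.1% lay above 0 and 10.2% were higher at an unadjusted p under 0.05. These shares were 55.7% and 4.30% among rows with a neighbour, and 52.7% and 4.13% over all tested rows. Of 18 pan-epithelial genes 14 were tested, 12 above 0, with a median of 0.47 (0.28 without Erbb2-deficient 1) and 4 at an unadjusted p under 0.05, all higher. Their summed level was 453 to 1005 CPM in Erbb2-deficient and 425 to 659 in control libraries. Epcam, the epithelial adhesion molecule, was at 71.9, 60.1, 131, 111 and 43.9 CPM in the Erbb2-deficient libraries and 47.8, 42.6, 35.6, 42.3 and 34.01 CPM in the controls. Erbb2-deficient 5 lay among the controls and the other 4 libraries above them (1.05 ± 0.30, adjusted p = 0.447). Krt8, a keratin whose row lies opposite Gm36026, was at 138 ± 43.3 against 84.8 ± 10.2 CPM (0.70 ± 0.25), Cdh1, E-cadherin, at 31.5 ± 17.1 against 14.95 ± 4.18 CPM (1.07 ± 0.39), and Lgals4, a galectin, at 108 ± 35.03 against 67.4 ± 23.2 CPM (0.69 ± 0.30).

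Absorptive colonocyte genes lay mostly above 0 as well: 11 of 28 were tested, 10 above 0, 4 of them at an unadjusted p under 0.05, and the median was 0.67 (0.34 without Erbb2-deficient 3). They were Muc3, Car2, a carbonic anhydrase, at 24.4 ± 8.12 against 13.5 ± 3.79 CPM (0.86 ± 0.31), the chloride-bicarbonate exchanger Slc26a3 at 12.5 ± 7.32 against 5.48 ± 3.71 CPM (1.17 ± 0.48) and Car4 at 29.2 ± 12.2 against 15.8 ± 8.19 CPM (0.89 ± 0.41). All 4 overlapped between the groups. Of all rows with no gene opposite 63.1% lay above 0, and of all tested rows 52.7%. At an unadjusted p under 0.05, 10.2% and 4.13% of these were higher. Tmigd1, another listed colonocyte gene, had no count in any adjacent library.

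All 10 tested goblet cell genes of 20 listed were above 0, with a median of 0.70 and 4 at an unadjusted p under 0.05. Of these rows 2 had an exon opposite. Among all rows with no gene opposite 63.1% lay above 0 and 10.2% were higher at that p. Over all tested rows these shares were 52.7% and 4.13%. Zg16, a secreted lectin of the mucus layer, was at 54.2, 68.9, 32.9, 26.2 and 43.9 CPM in the Erbb2-deficient libraries and 25.8, 13.7, 21.1, 4.88 and 19.6 CPM in the controls. The groups did not overlap, by a narrow margin between Erbb2-deficient 4 and control 1 (1.41 ± 0.39, adjusted p = 0.425, 0.0498 in DESeq2). Agr2, a disulfide isomerase needed for mucin folding, differed by 1.10 ± 0.37, Spink4 by 1.29 ± 0.53 and Muc13, opposite Gm15657, by 0.89 ± 0.35 (0.56 without Erbb2-deficient 3). Muc2, the main gel-forming mucin, differed by 0.40 ± 0.54. Summed over the 10 rows, goblet levels were 552 to 1017 CPM in Erbb2-deficient and 226 to 799.8 in control libraries, so the ranges overlapped.

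Other epithelial groups had few tested rows. Of Paneth-type and deep crypt secretory genes 2 of 12 were tested, Reg4 at 1.22 ± 0.65 and Nupr1 at 0.89 ± 0.46, while Defa24, Defa30, Mmp7, Reg3b and Itln1 had no count. Enteroendocrine genes had 3 of 15 tested, with Chga, chromogranin A, at 0.32 ± 0.55 and Chgb at 0.62 ± 0.64. Pax6 lay below 0, at -0.33 ± 0.28, with 58.4 against 73.2 CPM. No tuft cell gene of 12 was tested. Crypt stem and progenitor genes had 2 of 13, Lrig1 and Rgmb (0.23 ± 0.34), and Wnt targets 2 of 20, Sox4, opposite Gm26735, at -0.79 ± 0.35 (unadjusted p = 0.0413) and Tcf7 at -0.18 ± 0.19. Among 24 proliferation genes 6 were tested with a median of 0.11. Mki67, which encodes a nuclear protein of dividing cells, was at 20.6, 28.8, 22.2, 18.2 and 28.6 CPM in the Erbb2-deficient libraries and 12.4, 13.7, 15.997, 11.4 and 12.8 CPM in the controls. Its groups did not overlap (0.83 ± 0.25, adjusted p = 0.447), whereas Ccna2 (-0.25 ± 0.18), Plk1 (0.33 ± 0.28) and Mcm7 (0.23 ± 0.25) did. The rows of these 3 lie opposite Exosc9, opposite Gm44985, and opposite Ap4m1 and Cops6.

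Ribosomal protein rows lay on 1 side of 0. Of 45 cytosolic ribosomal protein genes 42 were tested, all 42 above 0, with a median of 0.64 (0.40 without Erbb2-deficient 1), 16 at an unadjusted p under 0.05 and none past the threshold. Of the 42 rows 10 had an exon opposite. Among all rows with no gene opposite 63.1% lay above 0 and 10.2% were higher at that p. Over all tested rows these shares were 52.7% and 4.13%. Rpl23, a protein of the large subunit, was at 55.95, 37.6, 37.5, 30.5 and 28.6 CPM in the Erbb2-deficient libraries and 19.1, 15.3, 5.82, 15.4 and 19.6 CPM in the controls. All Erbb2-deficient values were higher (1.35 ± 0.33, adjusted p = 0.413, 0.0312 in DESeq2). Rpl35, opposite Arpc5l and Wdr38, differed by 1.52 ± 0.45, Rpl7 by 0.93 ± 0.32 and Rpl3 by 0.81 ± 0.28. The 7 tested rows that lie opposite ribosomal protein genes were all below 0, with a median of -0.13 and 1 at an unadjusted p under 0.05. Among all rows with an exon opposite 46.2% lay above 0, the median was -0.03, and 3.54% were lower at that p. When rows without an exon opposite were scaled among themselves, the median of the ribosomal rows among them was 0.55.

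Rows of translation and splicing factors lay mostly above 0. Over all tested rows 52.7% lay above 0 and 4.13% were higher at an unadjusted p under 0.05. Among rows with no gene opposite these shares were 63.1% and 10.2%. An exon lay opposite 3 of the tested translation rows and 20 of the tested splicing rows. Of 29 translation factors 18 were tested, 16 above 0, 6 at an unadjusted p under 0.05, with a median of 0.54. Eef2, the elongation factor that moves the ribosome along the mRNA, was at 116, 96.9, 118, 103 and 87.2 CPM in the Erbb2-deficient libraries and 75.6, 79.5, 55.99, 38.2 and 60.4 CPM in the controls. The groups did not overlap (0.75 ± 0.23, adjusted p = 0.453). Neither did those of Eif3f (1.11 ± 0.29) and Eif4g1 (0.78 ± 0.29), 2 initiation factor subunits. Of 58 splicing factor genes, a list that also holds 2 long nuclear RNAs, 36 were tested, 31 above 0 and 7 at an unadjusted p under 0.05, with a median of 0.30. Malat1, one of these nuclear RNAs, opposite Gm37376, was at 26.8, 25.6, 42.9, 20.4 and 11.5 CPM in the Erbb2-deficient libraries and 8.61, 9.64, 7.998, 1.63 and 15.3 CPM in the controls. One Erbb2-deficient library, number 5, lay under one control (1.55 ± 0.45). Neat1, the RNA that builds paraspeckles, differed by 1.30 ± 0.45, highest in Erbb2-deficient 1 and 2 at 109.6 and 70.5 CPM, and Rbm39 by 0.96 ± 0.28.

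Of 13 mitochondrially encoded protein genes 11 were tested, 9 above 0 (52.7% of all tested rows lay above 0), with a median of 0.29. This median rested on single libraries: it was 0.097 without control 2, 0.16 without control 4, 0.44 without control 3 and 0.62 without control 5. CYTB, of respiratory complex III, was at 205 ± 82.5 against 102 ± 27.8 CPM (1.01 ± 0.31), COX2 at 44.4 ± 24.6 against 18.3 ± 6.15 CPM (1.28 ± 0.40) and COX1, opposite the tRNA row Ts1, at 245 ± 90.6 against 136 ± 45.9 CPM (0.85 ± 0.30), the last 2 being subunits of complex IV, all with an unadjusted p under 0.05 and overlapping groups. ND6, the row that holds most mitochondrial counts, differed by -0.03 ± 0.35. Nuclear-encoded oxidative phosphorylation genes had 14 of 39 tested, 11 above 0, and a median of 0.24, with Cox5b at 0.93 ± 0.38.

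Stromal and immune lists had few tested rows and no common direction. Fibroblast and matrix genes had 5 of 20 tested with a median of -0.15, Col3a1 at -0.35 ± 0.53 and Fn1, fibronectin, opposite Apol7d, at 0.24 ± 0.52. Endothelial genes had 2 of 16, at a median of -0.04. Among enteric neuron, glia and interstitial cell genes 3 of 18 were tested, with a median of -0.12. Ano1 is the chloride channel of pacemaker interstitial cells and is also expressed by some epithelia. Its row was at 14.4 ± 5.87 against 5.74 ± 2.201 CPM with no overlap (1.33 ± 0.37). Of all tested rows 0.815% were higher without overlap. Gfap differed by -0.12 ± 0.82 and Celf3, opposite Riiad1, by -0.16 ± 0.16. T and innate lymphoid genes had 2 of 22 (median 0.04), macrophage and dendritic genes 2 of 20 (0.37), and neutrophil and mast cell genes 0 of 15. MHC class II genes had 5 of 10 (0.20), with H2-Ab1 at 0.62 ± 0.40 and the regulator Ciita, opposite Dexi, at -0.29 ± 0.17, and MHC class I and interferon genes 6 of 28 (-0.18).

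Among the remaining lists, immediate early and stress genes had 9 of 29 tested and a median of -0.00, with the chaperones Hspa8 at 0.91 ± 0.32 and Hsph1 at -0.89 ± 0.44 on opposite sides. Unfolded protein response and secretory genes had 6 of 20 (0.36), led by the disulfide isomerase Pdia3, opposite Catsper2, at 1.17 ± 0.36. Cholesterol and fatty acid genes had 11 of 28 (0.10), Scd2 and Cpt1a (0.70 ± 0.33) above and Fdft1, opposite Ctsb (-0.41 ± 0.22) below. Clock genes had 5 of 19 (-0.03), with Per2 at 0.64 ± 0.35. Of fetal-like and regenerative epithelial genes 1 of 19 was tested, Ccn2, opposite Gm15270, at -0.72 ± 0.31, with no overlap between the groups.

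**Figure D4:**
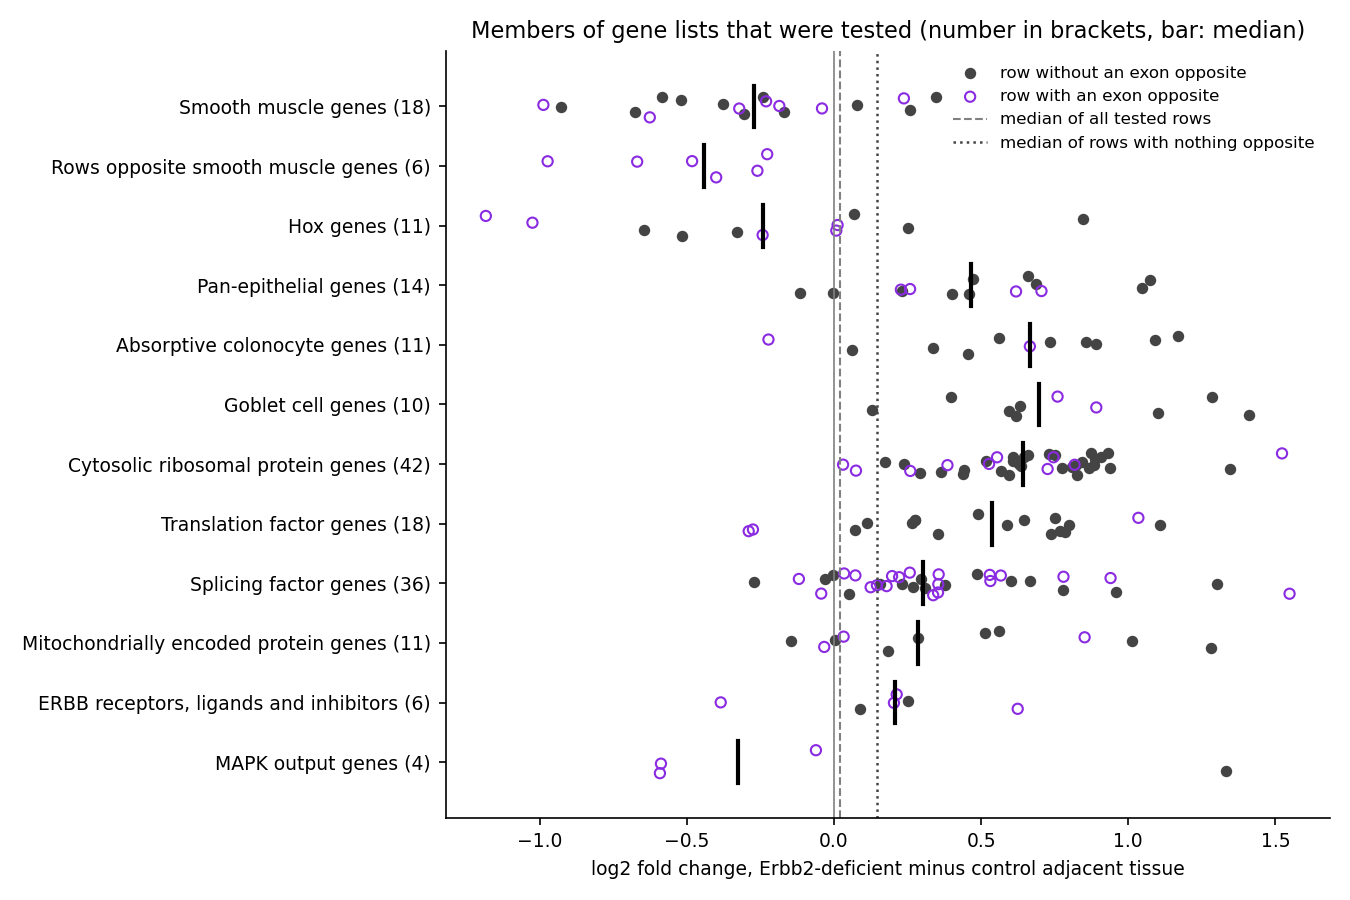
Log2 fold change (Erbb2-deficient minus control adjacent tissue) of each tested member of 11 gene lists and of the rows opposite smooth muscle genes. Filled points have no exon opposite, open points do, bars are list medians; ribosomal members all lie above 0 and smooth muscle members mostly below, beside the medians of all rows (0.02) and of rows with nothing opposite (0.15).

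The genotype difference in tumors was taken from a fit of all 20 libraries. It includes control tumors 2 and 3, which were known from an earlier analysis of these data to stand apart. They entered its estimate of the spread, and tumor values without them were not computed. Across the 5862 rows tested in both, log2 fold changes in adjacent tissue and tumors had a Pearson r of 0.27 and a Spearman rho of 0.36, with the same sign in 63.7% of rows. This is a description across rows, which are not independent replicates, and whether tumor and adjacent samples came from the same mice is not stated. Of the 12 lower rows 8 had the same sign in tumors, and of the 11 higher rows all 11.

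Prr33 had the same sign in tumors, at -2.40 (SE 0.59, adjusted p = 0.179), as had Gpr17 (-1.03, SE 0.35) and Gtpbp3 (-1.05, SE 0.33), and Pcsk7 was at -0.55 ± 0.30. Smtn differed in sign, at 0.67 ± 0.43 in tumors against -0.99 in adjacent tissue, as did Myl9, at 1.08 ± 0.54 against -0.68. Zg16 was at -0.10 ± 0.95 and Muc3 at 0.16 ± 0.78 in tumors, each less than 2 SE from its adjacent value.

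Whether the genotype difference itself differed between the tissues was tested as an interaction. edgeR called 0 of 7119 rows (0%), 290 had an unadjusted p under 0.05 (4.07%, with 2.67% above 0 and 1.40% below), and DESeq2 also called 0. The direction of this split was not stable: 190 rows lay above and 100 below, but 54 above and 215 below without control tumors 2 and 3, and 78 above and 107 below with the replicate number as a block. For Smtn the adjacent difference minus the tumor difference was -1.68 (SE 0.54, unadjusted p = 0.00543), for Myl9 -1.78 (SE 0.67, unadjusted p = 0.0149) and for Prr33 1.14 ± 0.79. None of these passed the adjusted threshold, so no row can be called particular to adjacent tissue.

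**Figure D5:**
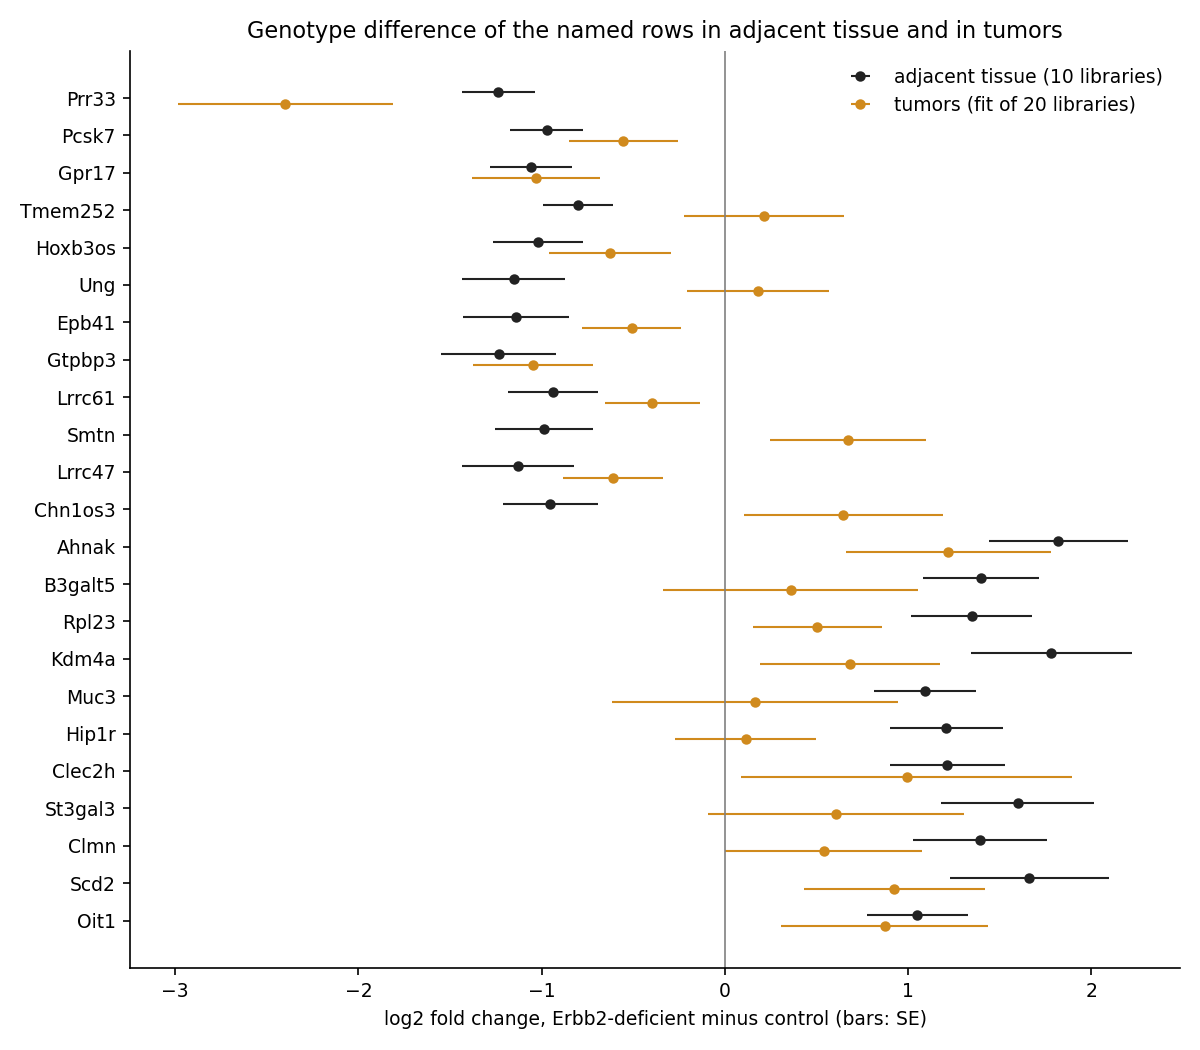
Log2 fold change (Erbb2-deficient minus control) with its SE for the 23 named rows in adjacent tissue (10 libraries) and in tumors (fit of 20 libraries). All 11 higher rows lie above 0 in both tissues, while Tmem252, Ung, Smtn and Chn1os3 lie below 0 in adjacent tissue and above it in tumors.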

How the data were processed

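RNA-seq counts of 20 libraries were used, 5 for each combination of genotype and tissue, with groups taken from the labels. Per the labels' protocols, RNA was isolated with a Maxwell kit and libraries were made with the TruSeq Stranded mRNA kit. The authors deposited raw counts for each gene symbol, with every library in its own file. The tools in the submitters' processing notes are HTSeq 2.0.2, HISAT2 2.2.1, Trimmomatic and DESeq2, with build mm39. The strand setting of the counting is not given in the sources used here. Beside 46329 gene rows a file holds 5 rows of read totals without a gene. These totals, with 96.6% to 97.5% of the reads of an adjacent library, entered neither library sizes nor tests.

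The 10 adjacent libraries were fitted in R 4.3.3 with edgeR 4.0.16: rows kept by filterByExpr (minimum count 10), TMM factors, robust dispersions, quasi-likelihood F tests, and Benjamini-Hochberg adjustment at 0.05 over all tested rows. An SE is the log2 fold change divided by the square root of F. A prior count of 2 was used for log2 CPM. The interaction and the tumor values came from a means model of the 4 groups on all 20 libraries. DESeq2 version 1.42.0 was an alternative, in which an adjusted p set to missing stayed missing. Differences in library measures were tested by exact permutation of the 252 splits (smallest possible p 0.00794), and component correlations with 100000 permutations. Scripts were tested on simulated counts. Gene counts of 1121240 to 1944309 per library put the median tested row at 38.7 counts, so counting error is large for most rows.

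The members, the 33 gene lists and the tests were chosen with earlier results of these data known. Of the counted symbols, 34643 matched GENCODE M21. Named are Erbb2, Mien1 and the tested ERBB members, the 12 rows of smallest p in each direction with a mean of at least 5 CPM (predicted-gene symbols and antigen receptor segments skipped), and up to 4 members of smallest p per list, except 2 rows that are not reported here; other names were added to show a partner, a defining gene or a call. Alternatives were DESeq2, other scaling factors and filters, covariates, a replicate block, and leaving out each library; 4 were added after the data were seen. No sequence is printed.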

Additional observations from a re-analysis of the deposited data

Results flagged for a closer look

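In 6 of 72 groups of 5 libraries, 1 library lay far from the other 4 by Dixon's test at the 95% level. The groups came from the 3 library measures, the rows of the ERBB list, those of smallest p and other named rows. All 6 flags were in rows of the ERBB list or of smallest p. Chance flags about 1 in 20 groups. Nrg4 was low in Erbb2-deficient library 4, at 177 CPM, with the other 4 at 224 to 228. Lrrc61 was high in Erbb2-deficient library 1, at 823 CPM, which is the library that makes its groups overlap. Clec2h was high in Erbb2-deficient library 1, at 14.8 CPM, and in control 5, at 8.50 CPM. Clmn was high in control 2, at 8.03 CPM, close under the lowest Erbb2-deficient value of 8.27. Scd2 was high in Erbb2-deficient library 3, at 39.1 CPM, with the other 4 at 10.2 to 13.7.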

How the results depend on the processing

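The genotype comparison called 0 rows and the count of calls moved with the method: 36 with DESeq2, 65 without a filter on low counts (28 higher, 37 lower), 5 with the no-feature share as covariate, and 1 (Prr33) in 18 libraries without control tumors 2 and 3 and in rows without an exon opposite. Alternatives added after the data were seen gave 1 (Prr33) for those rows scaled among themselves and 13 (2 higher, 11 lower) without control adjacent 3 and with the no-feature share. It stayed at 0 with RLE factors, a mean of at least 50 counts, all 20 libraries, the Tsix or smooth muscle covariate, mitochondrial rows left out, a non-robust fit, rows with an exon opposite scaled among themselves, and each library left out (346 to 514 rows at an unadjusted p under 0.05, smallest adjusted p 0.0730 without Erbb2-deficient 1). Unadjusted counts ran from 133 of 2541 tested rows with the stricter filter to 2026 of 25019 without one, beside 428 of 5887 in the main fit. The 65 calls without a filter were out of the same 25019 rows. The interaction called 0 rows in each alternative run.

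Equal replicate numbers correlated at 0.48, -0.23, 0.06, 0.17 and 0.15 in their deviations from the group means, so they were not taken to pair the samples, and not every library correlated best with its own number. With the number as a replicate block 0 rows were called (479 at an unadjusted p under 0.05, and 185 in the interaction, with 0 called), and with the block and the no-feature share 1, A930016O22Rik.

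Besides the values without single libraries given with the lists, list medians moved as follows. With the smooth muscle covariate the goblet median was 1.24 and the translation factor median 0.82. The translation factor median was -0.23 among the rows with an exon opposite scaled among themselves, and the splicing median 0.19 among those without. The Hox median was -0.41 to 0.062 with 1 library left out, highest without control adjacent 3 and lowest without control adjacent 5, and 0.067 with the no-feature share added to that fit. The MAPK median was 0.00980 with a mean of at least 50 counts (Ccnd1 alone), 1.33 in rows without an exon opposite and 1.21 when these were scaled among themselves (Etv4 alone). The cause of these moves was not tested beyond the fewer rows that some settings leave. The differences in library measures changed sign when single libraries were left out: -0.591 to 0.795 points for the no-feature share and -0.561 to 1.39 points for the ND6 share.

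Over 74 named rows and 1844 row and alternative pairs, 1779 kept direction and side of the threshold, 58 (28 rows) passed it, and 7 in 3 uncalled rows changed sign. Egfr was -0.00777 among rows without an exon opposite scaled alone and -0.14 to 0.27 with 1 library left out, Grb7 -0.069 to 0.64, and Ccnd1 0.00980 with a mean of at least 50 counts and -0.14 to 0.0058 with 1 library left out. Without 1 library these other rows moved by over 1.5 times and kept their sign: Erbb2 to 0.38 (Erbb2-deficient 3) and 0.40 (control 4), Mien1 to -0.78 (Erbb2-deficient 3), -0.59 (control 3) and -0.17 (Erbb2-deficient 5), Lrig1 to 0.083 (control 3), Phlda1 to -0.99 (Erbb2-deficient 2), Myl9 to -0.39 and Acta2 to -0.37 (control 1), Neat1 to 0.83 (Erbb2-deficient 1) and Hoxb13 to 0.53 (control 3). Low counts per row and library limit what these libraries can show.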
